A study of Rattus norvegicus with 5 samples.

Results

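The 31 genes described here encode the contractile machinery, calcium handling and energy supply of skeletal muscle, and they were followed in RNA of whole rat cornea. They were chosen by symbol and looked up in a table of 20339 genes. A row was found for 25 of them, Myh8 was taken from its isoform row, and 5 (Ttn, Atp2a1, Myh1, Myh2 and Tcap) were not analysed here. Myh7, the slow myosin heavy chain, stood at 0 in every library, and Tnnt1 and Tnni1 held fewer than 20 counts over all libraries together.

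The libraries came from 2 transgenic corneas and 3 wild-type corneas of male Sprague-Dawley rats, all 6 months of age. The transgenic P1 hMR animals overexpress human NR3C2, the gene of the mineralocorticoid receptor, and wild-type animals lack it; no other allele or treatment is named, and the sources used here do not state which promoter drives the transgene. The study asked how an excess of this steroid receptor alters the cornea. Each library is taken as 1 animal, although no label says so, so that p-values measure the spread between libraries. Depth ran from 20874010 to 30449675 gene counts. Human NR3C2 had 1094 and 1146 counts in the transgenic corneas, against 0 in each wild-type cornea. Summed markers of the corneal epithelium lay between 98346 and 123820 CPM (counts scaled to a common library size), with Krt12, the keratin of that epithelium, among the most abundant. Wild-type cornea 1 stood apart from the other 4 libraries in some of the muscle genes and in most lens genes, among other genes. Values without that library are given where it moves a result.

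In a muscle fibre, myosin heads on the thick filaments pull on actin in the thin filaments. Calcium released from the sarcoplasmic reticulum through the ryanodine receptor binds troponin on the thin filament and starts the pull. Adult fibres are fast or slow according to which paralogue of each protein they make, and embryonic and perinatal myosins precede the adult ones. The cornea itself is built from an epithelium, a stroma of keratocytes and an endothelium; the skeletal muscles of the eye lie outside it.

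The 22 genes that had a gene row and at least 20 counts fell into 2 kinds. In 7 of them (Ckm, Myl1, Mb, Acta1, Actn3, Myh3 and Tnnc2) wild-type cornea 1 exceeded every other library at least 2-fold, on CPM with a pseudocount of 0.1. The same held for 53 of 13955 genes with at least 20 counts, or 0.380%. At 4-fold it held for 5 of the muscle genes and for 16 of all genes, or 0.115%. None of the 22 was 2-fold above the rest in any other library. Over all genes, 14 and 70 were 2-fold above the rest in transgenic corneas 1 and 2. In wild-type corneas 2 and 3 the numbers were 22 and 13. The summed level of the 7 genes was 0.851 and 0.892 CPM in the transgenic corneas, against 10.7, 0.343 and 0.501 CPM in the wild-type corneas. The summed level of the other 15 was 93.0 and 86.0 CPM in the transgenic corneas, against 106, 88.4 and 78.3 CPM in the wild-type corneas. One wild-type cornea thus carried the 7 genes, while the 15 had counts in every library. The lowest of these were 1 and 2 counts, for Mybpc2 in wild-type corneas 2 and 3. The grouping rests on these values, so it is a description and was not tested. In bulk tissue, fewer cells of a type and less RNA per cell cannot be told apart.

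**Figure D1:**
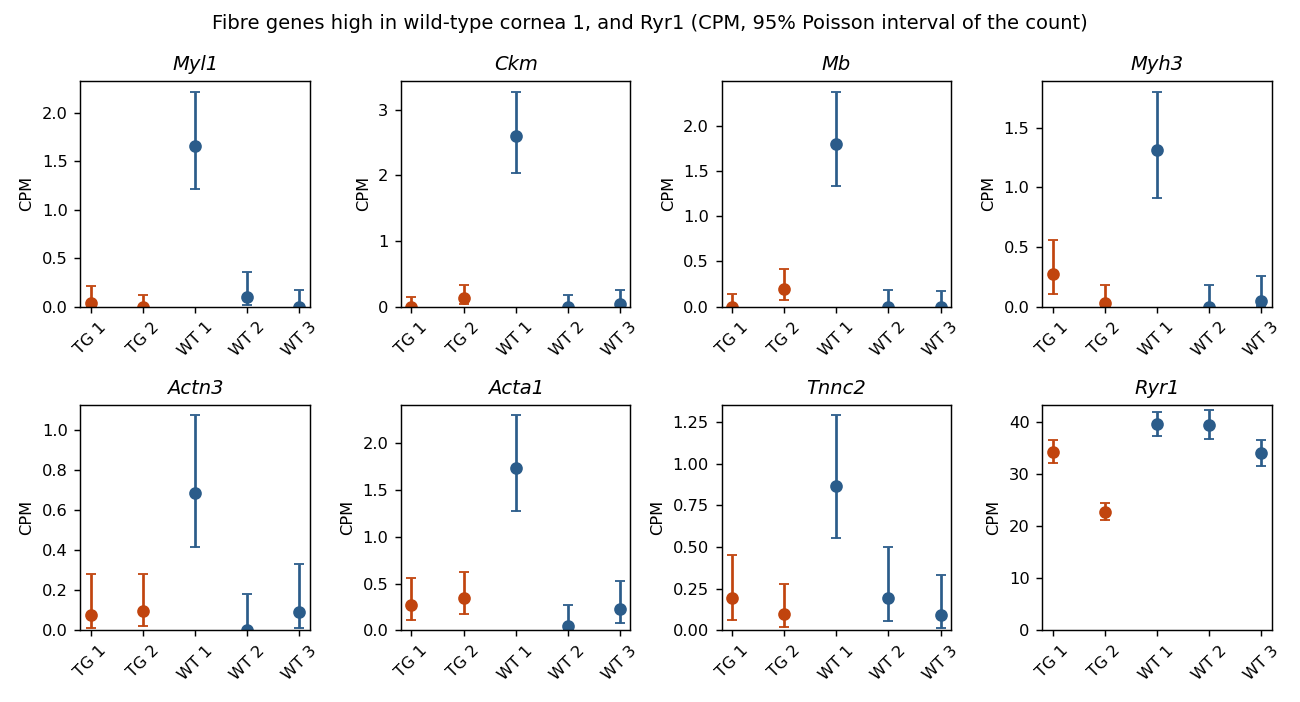
CPM of the 7 muscle genes high in wild-type cornea 1 (WT 1) and of Ryr1, in each transgenic (TG) and wild-type (WT) library; points are CPM and bars are 95% exact Poisson intervals of the count, which cover counting error only. In the 7 genes WT 1 stands alone above libraries near 0, while Ryr1 is read in all 5 libraries at 22.8 to 39.6 CPM.

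To show what lies upstream of genes of the 2 kinds, the 250 bases before the start are given for 3 of the 7 genes (Ckm, Acta1, Mb) and for Ryr1, from RefSeq assembly GRCr8, 5′ to 3′ on the gene's strand. Ckm is at chr1:88189211-88189460 on the plus strand, and Acta1 at chr19:68784195-68784444, Mb at chr7:110647743-110647992 and Ryr1 at chr1:93551306-93551555 on the minus strand. Capitals mark matches to the motifs searched on both strands: TATAAA, the E-box CAGCTG, the E-box CACCTG (read as CAGGTG on the other strand), the CArG box and the MEF2 site, which can overlap TATAAA.
Ckm: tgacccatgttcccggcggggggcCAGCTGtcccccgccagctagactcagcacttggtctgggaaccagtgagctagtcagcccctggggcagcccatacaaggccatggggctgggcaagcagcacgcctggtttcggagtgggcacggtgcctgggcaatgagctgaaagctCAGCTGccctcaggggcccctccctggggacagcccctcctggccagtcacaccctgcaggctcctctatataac
Acta1: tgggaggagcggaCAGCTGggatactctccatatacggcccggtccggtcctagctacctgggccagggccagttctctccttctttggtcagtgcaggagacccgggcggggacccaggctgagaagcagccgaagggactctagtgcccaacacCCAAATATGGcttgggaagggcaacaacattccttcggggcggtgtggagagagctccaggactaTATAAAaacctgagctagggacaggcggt
Mb: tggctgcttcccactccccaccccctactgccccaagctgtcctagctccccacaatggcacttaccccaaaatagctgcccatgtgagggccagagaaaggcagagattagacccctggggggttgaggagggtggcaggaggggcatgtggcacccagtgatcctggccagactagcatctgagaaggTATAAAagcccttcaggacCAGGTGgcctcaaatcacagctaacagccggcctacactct
Ryr1: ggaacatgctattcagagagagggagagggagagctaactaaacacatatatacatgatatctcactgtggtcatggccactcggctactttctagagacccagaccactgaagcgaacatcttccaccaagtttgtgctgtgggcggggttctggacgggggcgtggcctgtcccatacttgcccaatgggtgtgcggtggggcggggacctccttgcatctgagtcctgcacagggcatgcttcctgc

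E-boxes are the letters that myogenic factors such as MyoD bind, the CArG box is bound by serum response factor, and MEF2 sites by MEF2 factors. Over windows of 250 bases before and 50 after the start, TATAAA was found in 14.2% of 33469 promoters, CAGCTG in 15.1%, CACCTG in 18.8%, the CArG box in 1.64% and the MEF2 site in 3.29%. All 31 genes matched the RefSeq table (Mylpf as Myl11), and 28 had such a window. TATAAA stood in 4 of the 7 genes high in wild-type cornea 1 and in 3 of the 13 windows of the other 15 genes. CAGCTG stood in 2 of the 7 and in 6 of the 13, and CACCTG in 2 of the 7 and in 4 of the 13. The CArG box stood in 1 of the 7 and 2 of the 13, and the MEF2 site in 1 of each. No motif was held by all genes of one kind. Of the 13 windows, only those of Ryr1, Actn2 and Pvalb held none of these letters, and of the 7 only that of Actn3. The sequences printed are thus examples and not a contrast between the kinds. A match is a run of letters and says nothing of binding.

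Among thin-filament genes, Acta1, the skeletal muscle alpha-actin, had 7 and 11 counts in the transgenic corneas, against 48, 1 and 5 in the wild-type corneas. Wild-type cornea 1 held 66.7% of them (95% exact binomial interval 54.6% to 77.3%), whereas it held 21.7% of the normalized depth. Acta1 averaged 0.310 ± 0.0568 CPM in transgenic corneas and 0.670 ± 0.925 CPM in wild-type corneas (SD, n = 2 and n = 3), and the wild-type mean was 0.138 CPM without wild-type cornea 1. Which genotype averaged higher therefore turned on that library. Tnnc2, the fast troponin C that binds calcium, had 5 and 3 counts in the transgenic corneas, against 24, 4 and 2 in the wild-type corneas. Wild-type cornea 1 held 63.2% of these (46.0% to 78.2%). These intervals, like the floors given below, cover counting error only.

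The other troponin genes with enough counts were read in every library. Tnnt3, the fast troponin T that ties troponin to tropomyosin, had 9.25 and 13.0 CPM in the transgenic corneas, against 9.50, 7.24 and 5.19 CPM in the wild-type corneas. Its log2 fold change was 0.60 ± 0.26 (SE; edgeR adjusted p = 0.788), and the groups overlapped. Tnnc1, the slow and cardiac troponin C, had 9.99 and 10.9 CPM in the transgenic corneas, against 9.39, 9.40 and 7.70 CPM in the wild-type corneas. Both transgenic libraries exceeded every wild-type one, by little, and the log2 fold change of 0.24 ± 0.17 did not pass the test (edgeR adjusted p = 0.860). Tnni2, the fast inhibitory troponin, had 4.59 and 6.75 CPM in the transgenic corneas, against 7.91, 6.66 and 4.55 CPM in the wild-type corneas. Neb, the giant nebulin that runs along the thin filament, had 4.13 and 3.98 CPM in the transgenic corneas, against 5.16, 2.74 and 3.64 CPM in the wild-type corneas. Both overlapped between genotypes. In the RefSeq annotation Tnni2 overlaps Ctsd and Ifitm10 on the opposite strand and Syt8 on its own, and no source used here says whether strand was kept, so its counts are uncertain.

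The slow partners were read at a few counts or none. Tnnt1, the slow troponin T, had 2 counts, both in wild-type cornea 1. Tnni1, the slow inhibitory troponin, had 0 and 0 counts in the transgenic corneas, against 4, 1 and 5 in the wild-type corneas. With a floor of 3 counts, a count of 0 allows up to 0.0955 to 0.147 CPM depending on the library; the upper end of the two-sided 95% exact Poisson interval of a 0, as plotted, is 3.69 counts.

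Among thick-filament genes, Myl1, the essential light chain of fast fibres, had 1 and 0 counts in the transgenic corneas, against 46, 2 and 0 in the wild-type corneas. Wild-type cornea 1 held 93.9% of them (83.1% to 98.7%), which was the largest share of the 22 genes. Myh3, the embryonic myosin heavy chain, had 7.07 and 1.02 counts in the transgenic corneas, against 36.3, 0 and 1 in the wild-type corneas, or 80.0% (65.4% to 90.4%) in wild-type cornea 1. Mylpf, the regulatory light chain of fast fibres, lay just below the 2-fold line. It had 17 and 24 counts in the transgenic corneas, against 42, 9 and 10 in the wild-type corneas. Wild-type cornea 1 was 1.87-fold above the next library and held 41.2% of the counts (31.5% to 51.4%). Tnnc2 was the nearest above the line, at 3.27-fold, so no gene lay between these values.

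Myh4, the heavy chain of the fastest fibres, had 4.67 and 3.27 CPM in the transgenic corneas, against 6.71, 4.80 and 3.96 CPM in the wild-type corneas, and the groups overlapped. Mybpc1, the slow myosin binding protein C, had 1.58 and 1.31 CPM in the transgenic corneas, against 1.30, 0.440 and 0.592 CPM in the wild-type corneas. Mybpc2, its fast paralogue, had 0.578 and 0.414 CPM in the transgenic corneas, against 0.325, 0.0489 and 0.0911 CPM in the wild-type corneas. In both genes the transgenic libraries exceeded every wild-type one, and wild-type cornea 1 came nearest to them. The log2 fold changes of 0.86 ± 0.50 for Mybpc1 and 1.55 ± 0.76 for Mybpc2 did not pass the test (SE; edgeR adjusted p = 0.836 and 0.820). Without wild-type cornea 1 they were 1.48 ± 0.47 and 2.73 ± 0.84 and again did not pass (SE; edgeR adjusted p = 0.581 and 0.570).

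Among genes of the Z disc, which anchors the thin filaments, Actn3, the alpha-actinin of fast fibres, had 2 and 3 counts in the transgenic corneas, against 19, 0 and 2 in the wild-type corneas. Wild-type cornea 1 held 73.1% of them (52.2% to 88.4%). Its paralogue Actn2 behaved otherwise, with 1.20 and 0.891 CPM in the transgenic corneas, against 0.758, 0.832 and 0.501 CPM in the wild-type corneas. Both transgenic libraries exceeded the wild-type ones in Actn2, with a log2 fold change of 0.57 ± 0.45 that did not pass the test (SE; edgeR adjusted p = 0.870). Ldb3, a PDZ and LIM protein of the Z disc, had 2.20 and 2.99 CPM in the transgenic corneas, against 2.02, 1.91 and 3.28 CPM in the wild-type corneas, and the groups overlapped.

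None of the 3 calcium-handling genes with a gene row was 2-fold high in wild-type cornea 1. Ryr1, the calcium release channel of the sarcoplasmic reticulum, had 891 and 717 counts in the transgenic corneas, against 1097, 807 and 747 in the wild-type corneas. That is 34.4 and 22.8 CPM in the transgenic corneas, against 39.6, 39.5 and 34.0 CPM in the wild-type corneas. Transgenic cornea 2 was the lowest library, and transgenic cornea 1 lay just above wild-type cornea 3, so the groups overlapped. Ryr1 overlaps LOC103689966 on the other strand in the RefSeq annotation, so its counts are uncertain in the same way as those of Tnni2. Wild-type cornea 1 and wild-type cornea 2 had nearly the same Ryr1 level, although the summed level of the 7 genes was 10.7 CPM in the one and 0.343 CPM in the other. Ryr1 had the smallest p of the muscle genes, with a log2 fold change of -0.40 ± 0.17 (SE; edgeR unadjusted p = 0.049, adjusted p = 0.786), which is not a call. Casq1, the calcium store of fast fibres, had 2.51 and 1.37 CPM in the transgenic corneas, against 1.62, 2.45 and 1.23 CPM in the wild-type corneas. Pvalb, the soluble calcium buffer parvalbumin, had 1.39 and 1.24 CPM in the transgenic corneas, against 1.77, 1.17 and 1.27 CPM in the wild-type corneas. Both overlapped between genotypes.

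Among energy-supply genes, Ckm, the muscle creatine kinase that refills ATP, had 0 and 4 counts in the transgenic corneas, against 72.0, 0 and 1 in the wild-type corneas. Wild-type cornea 1 held 93.5% of them (85.5% to 97.9%) and was 11.9-fold above the next library. Mb, the oxygen-binding myoglobin, had 0 and 6 counts in the transgenic corneas, against 50, 0 and 0 in the wild-type corneas, or 89.3% (78.1% to 96.0%) in wild-type cornea 1. Ckm and Mb thus had the same order of libraries at the top: wild-type cornea 1 first, then transgenic cornea 2. Pygm, the muscle glycogen phosphorylase, had 7.83 and 7.07 CPM in the transgenic corneas, against 7.62, 4.31 and 4.10 CPM in the wild-type corneas. Eno3, the beta-enolase of glycolysis, had 8.14 and 9.20 CPM in the transgenic corneas, against 10.5, 6.51 and 7.74 CPM in the wild-type corneas. Both are muscle paralogues that were read in all corneas and overlapped between genotypes. Eno3 overlaps Spag7 on the other strand, and Mb and Pygm overlap genes of long noncoding RNA there. The counts of Eno3, Mb and Pygm are therefore uncertain too.

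**Figure D2:**
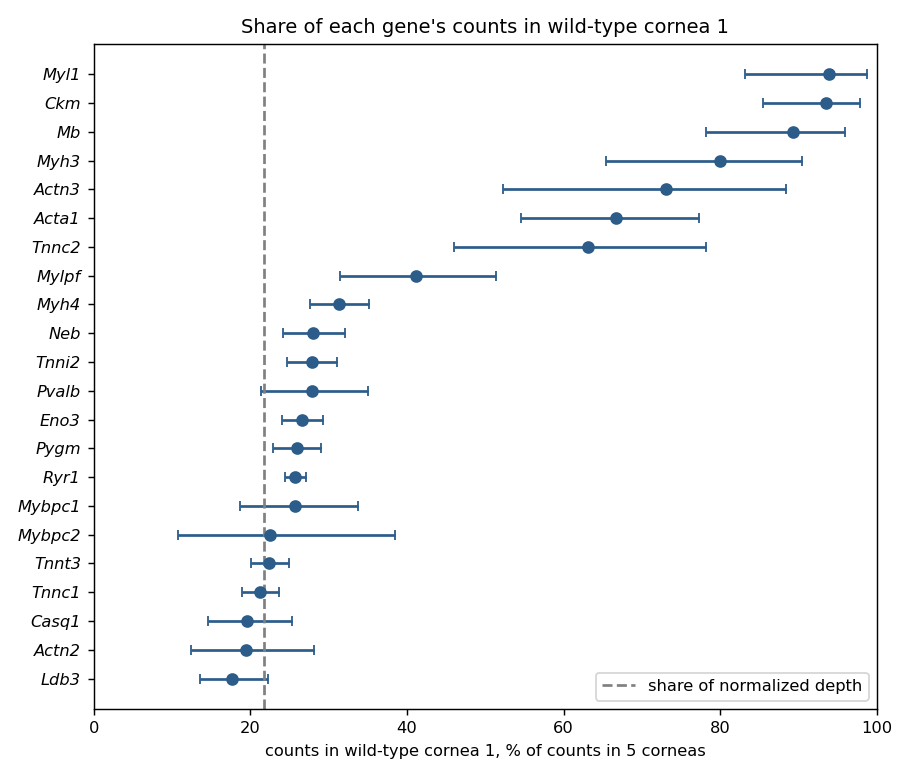
Share of each gene's counts that fell in wild-type cornea 1, in percent of its counts in 5 corneas, for the 22 muscle genes with at least 20 counts; bars are 95% exact binomial intervals and the dashed line is that library's 21.7% of the normalized depth. The 7 upper genes lie at 63.2% to 93.9%, and the 15 lower ones at 17.6% to 41.2%.

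By fibre type, 3 of the 9 fast-fibre genes with a gene row (Tnnc2, Myl1 and Actn3) were 2-fold high in wild-type cornea 1, and none of the 5 slow-fibre genes was, of which 2 (Tnnc1 and Mybpc1) had at least 20 counts. Of the developmental myosins, Myh3 was high in wild-type cornea 1, while Myh8, the perinatal form, had 37.8 counts in wild-type cornea 3 and 0 elsewhere, in its isoform row alone. Myosin heavy chain genes are near-identical in long stretches and the counts divide shared reads among them, so which myosin a read belongs to is uncertain.

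A second rule asked which genes followed a profile over all 5 libraries, the sum of Acta1, Ckm, Mylpf, Tnnt3 and Tnnc2, each left out of the sum in its own turn. A gene was said to co-vary when at least 8 of the 10 pairs of libraries stood in the same order, the highest library was shared and its log2 range was at least 2. Acta1 and Actn3 did, as did 53 of 13955 genes (0.380%); 5 other muscle genes were in between and 16 did not, Ryr1 and Ckm among them. Tnnt3 held 80.2% of the counts in that sum, so the profile was mostly that of Tnnt3. Without Tnnt3, a choice made after seeing the data, 4 genes co-varied (Acta1, Myh3, Actn3 and Ckm). Ryr1 was not among the co-varying genes under any of the settings tried.

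Among the genes nearest in profile to the sum of the 5, by root mean square difference of log2(CPM + 0.1) over the 5 libraries, were Carmil3, NEWGENE_6497122, Bcl6b, Fxyd2, Sema6a, Slc26a10, Ptprn, Slc6a12 and Dnajc12, at 0.129 to 0.163. None of these is on a muscle list used here. Without Tnnt3 the nearest was the lens crystallin gene Crygb, at 0.347, with 0.0771 and 0.0955 CPM in the transgenic corneas, against 0.903, 0.0979 and 0.0911 CPM in the wild-type corneas. Zic5, Slc29a4, Rcvrn, Cdh22, Ccl2, Crygc, Gdf10, Abat and Bsn followed, at 0.448 to 0.541. Of these only Crygc is another crystallin gene.

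Between genotypes, no muscle gene was called. Of the 31 genes, 15 passed the filter on low counts, and none of the 7 genes high in wild-type cornea 1 did. None of the 15 passed an adjusted p of 0.05 in edgeR (0.786 to 0.980), and 1 of 13304 genes in all did, the transgene itself, or 0.00752%. At an unadjusted p under 0.05 edgeR gave 1 of the 15 and 6.32% of all genes. DESeq2 called none of the 15 at the adjusted threshold and 0.391% of all genes, with 2 of the 15 at an unadjusted p under 0.05, and limma voom called none, with 3 unadjusted. Without the filter 24 muscle genes were tested and none was called, with 3 unadjusted. For DESeq2, limma voom and the fit without the filter, the unadjusted share over all genes is not given here. Their unadjusted counts therefore have no background to be set against.

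Of the 15, 10 had a log2 fold change above 0 and 5 below, and 48.2% of all genes tested lay above 0. Their median was 0.12, against -0.01 over all genes, and the median took either sign as single libraries were left out. In 4 of the 15 (Tnnc1, Mybpc1, Mybpc2 and Actn2) every transgenic value lay above every wild-type value, which held for 12.0% of all genes. In none did every transgenic value lie below, which held for 10.7% of all genes. Without wild-type cornea 1 the log2 fold change of Mylpf was 0.67, against -0.21 with it, and those of Tnnt3 and Pygm were 0.85 and 0.83, against 0.60 and 0.47 with it; none of the 15 was called (lowest edgeR adjusted p = 0.415, for Pygm). The 7 genes had negative log2 fold changes in the fit without the filter, from -1.15 for Acta1 to -4.78 for Myl1 (edgeR adjusted p = 0.906 for each). Without wild-type cornea 1 they did not keep one direction. Ckm then averaged 0.0637 CPM in transgenic and 0.0228 CPM in wild-type corneas, Mb 0.0955 CPM in transgenic corneas and 0 in wild-type corneas, Actn3 0.0863 CPM in transgenic and 0.0455 CPM in wild-type corneas, and Myh3 0.153 CPM in transgenic and 0.0228 CPM in wild-type corneas. Tnnc2 averaged 0.144 CPM in transgenic and 0.143 CPM in wild-type corneas, and Myl1 0.0193 CPM in transgenic and 0.0489 CPM in wild-type corneas. These are levels of a few counts or none.

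**Figure D3:**
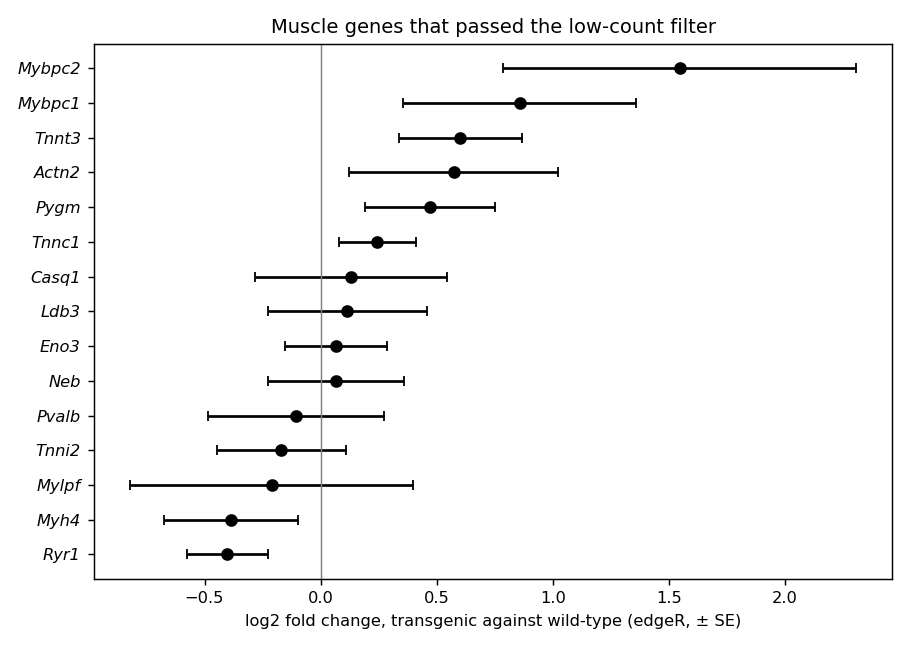
Log2 fold change of transgenic against wild-type corneas for the 15 muscle genes that passed the filter, with bars of ± SE from edgeR over 2 transgenic and 3 wild-type libraries. Values run from -0.40 for Ryr1 to 1.55 for Mybpc2, and no gene passed the adjusted threshold.

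The isoform table separated some gene rows into parts that did and did not follow the 7 genes. It held 48 named rows for 26 of the 31 genes, 38 of them with counts and 6 with counts in wild-type cornea 1 alone. Other libraries had such rows too. A Tnnt3 row had 34.8 counts in transgenic cornea 2 alone, and a Myh4 row (ENSRNOT00000085582) 33.8 in transgenic cornea 1 alone. A Mybpc1 row had 9 counts in wild-type cornea 2 alone, and the Myh8 row 37.8 in wild-type cornea 3 alone. The share of such rows over all isoforms is not given here. For Mylpf, the single named isoform had 0 and 2.55 counts in the transgenic corneas, against 31.2, 0 and 0 in the wild-type corneas. The rest of the Mylpf gene row amounted to 17 and 21.4 counts in the transgenic corneas, against 10.8, 9 and 10 in the wild-type corneas. So the named isoform was high in wild-type cornea 1 while the remainder was read in all libraries. For Tnnc2 the named isoform had 22.7 counts in wild-type cornea 1 and 0 in the other 4 libraries. For Mybpc2 it had 9 counts there and 0 elsewhere, although the gene row had 15 and 13 counts in the transgenic corneas, against 9, 1 and 2 in the wild-type corneas. Named Myh3 likewise had its 36.3 counts in wild-type cornea 1. The named Actn2 isoform had 12.3 and 8.39 counts in the transgenic corneas, against 16.9, 0 and 0 in the wild-type corneas. It was thus not particular to wild-type cornea 1. Named isoforms held 0% of the Neb gene row, 1.55% of Eno3 and 6.43% of Mybpc1. The levels of these genes rest mostly on counts outside the named isoforms. For Tnnt3, Tnni2, Casq1, Pvalb and Ryr1 the named share was 100%.

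For Myh4, 1 isoform (ENSRNOT00000045718) had 0 and 4.07 counts in the transgenic corneas, against 47.5, 2.01 and 5.05 in the wild-type corneas. Another (ENSRNOT00000004295) had 84.8 and 98.6 counts in the transgenic corneas, against 113, 96 and 81.8 in the wild-type corneas. The Myh4 row with the most counts (ENSRNOT00000004236) had 754 and 563 counts in the transgenic corneas, against 500, 579 and 433 in the wild-type corneas. The row with the most counts is not part of the Myh4 gene row, which equals the sum of 4 of the 6 isoform rows to within 0.05 counts. A further row (ENSRNOT00000082871) had 2.38 and 0 counts in the transgenic corneas, against 24.9, 0 and 0 in the wild-type corneas. Some isoform labels of Myh4 were thus high in wild-type cornea 1 beside others that were not. For Ldb3, 1 isoform had 19.7 counts in wild-type cornea 1 and 0 elsewhere, and another 63.5 counts in transgenic cornea 2 and 0 elsewhere. Ryr1 was carried by a single row in every library. Of the 14 muscle isoforms tested none was called, none reached an unadjusted p under 0.05, and edgeR called none of 27110 isoforms (0%), with 3.98% at an unadjusted p under 0.05. DESeq2 called 0.771% of all isoforms and none of these. Single isoform estimates divide shared reads and are less certain than gene rows.

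**Figure D4:**
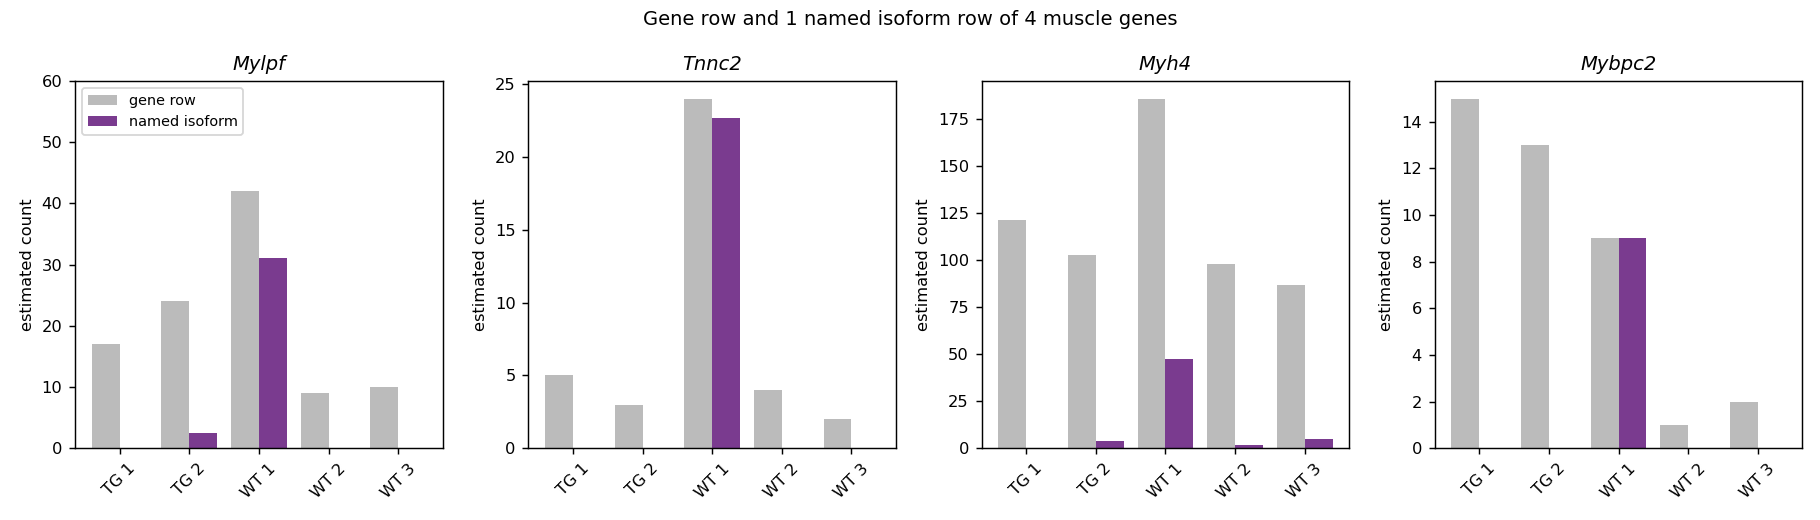
Estimated counts of the gene row (grey) and of 1 named isoform (purple) of Mylpf, Tnnc2, Myh4 and Mybpc2 in each transgenic (TG) and wild-type (WT) library. The named isoform is high in WT 1, at 31.2, 22.7, 47.5 and 9 counts, and at 5.05 counts or less elsewhere. The gene rows have counts in all libraries, but few in some. Tnnc2 has 5 and 3 in TG 1 and TG 2 and 4 and 2 in WT 2 and WT 3, and Mybpc2 has 1 and 2 in WT 2 and WT 3.

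Beyond the 31 genes, 106 other muscle genes in 6 lists were read, and 98 had a gene row. In 12 of these, counts were found in wild-type cornea 1 alone: Lmod2, Myot, Xirp2, Smpx, Csrp3, Klhl40, Unc45b, Sln, Jsrp1, Art1, Trim54 and Myh15. Counts in a single other library were found in 0 genes for either transgenic cornea and for wild-type cornea 2, and in 3 for wild-type cornea 3. Over all 20339 genes, 142 and 212 were read in a single transgenic cornea alone, against 177, 75 and 115 in a single wild-type cornea alone. Of the 12, 8 rest on 3 counts or fewer; Xirp2, a protein of the intercalated and Z discs, had 11 counts, Myh15 7, and Myot and Unc45b 5 each. Among those with at least 20 counts, Hrc, a calcium-binding protein of the sarcoplasmic reticulum, was 2.04-fold above every other library in wild-type cornea 1. It had 5 and 6 counts in the transgenic corneas, against 25, 8 and 5 in the wild-type corneas. Actc1, the cardiac alpha-actin also made in developing muscle, had 0 and 1 counts in the transgenic corneas, against 14, 0 and 0 in the wild-type corneas. Ckmt2, the mitochondrial creatine kinase of muscle, had 0 and 2 counts in the transgenic corneas, against 11, 0 and 0 in the wild-type corneas. The voltage sensor Cacna1s had 2 and 1 counts in the transgenic corneas, against 10, 2 and 0 in the wild-type corneas. Actc1, Ckmt2 and Cacna1s were named after their values were seen. Chrne went the other way, with 5 and 10 counts in the transgenic corneas, against 0, 0 and 5 in the wild-type corneas. Wild-type cornea 1 was highest in 16 of 32 other sarcomere genes with counts and 6 of 17 of excitation-contraction coupling. It led 4 of 17 in metabolism and turnover, and 4 of 6 among extraocular and cardiac-type genes. For the neuromuscular junction it led 2 of 10, and for myogenic factors 0 of 6. The share of all genes that were highest in wild-type cornea 1 is not given here. These numbers therefore have no background to be set against. Some of the genes rest on very few counts, such as Lmod2, Smpx and Csrp3 with 1 count each. The myogenic factors Pax7, Myf5, Myf6, Myod1 and Myog stood at 0 in every library.

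Of the 98, 46 were tested between genotypes, 29 lay above 0 and 17 below, with a median log2 fold change of 0.08, and edgeR called none. Among those of smallest p in each list were Myom3 and Hspb7, Casq2 and Bin1, Cox7a1 and Fbxo32, Myh7b and Tnnt2, Musk and Ache, and Mef2c. Myom3, a protein of the M band, had 1.81 and 1.50 CPM in the transgenic corneas, against 5.71, 5.04 and 2.96 CPM in the wild-type corneas. Both transgenic values lay below all wild-type ones, with a log2 fold change of -1.47 ± 0.34 (SE; edgeR adjusted p = 0.466), while DESeq2 gave an adjusted p of 0.0441. Tnnt2, the cardiac troponin T, had 1.85 and 1.40 CPM in the transgenic corneas, against 3.36, 2.84 and 2.91 CPM in the wild-type corneas, with a log2 fold change of -0.91 ± 0.31 (SE; edgeR adjusted p = 0.664). Ache, the acetylcholinesterase of the neuromuscular junction, had 20.6 and 18.3 CPM in the transgenic corneas, against 15.2, 12.4 and 9.43 CPM in the wild-type corneas, with a log2 fold change of 0.65 ± 0.19 (SE; edgeR adjusted p = 0.543). The groups did not overlap in these 3, which are among those of smallest p. Over the 46 genes, every transgenic value lay above every wild-type value in 6 and below in 4, against 12.0% and 10.7% of all genes. The genes of highest mean level in the lists, Tpm1, Tpm3, Asph, Atp2a2, Pfkm, Myh14, Lrp4 and Agrn, were read in every library; Atp2a2, the calcium pump also used outside skeletal muscle, had 201 and 184 CPM in the transgenic corneas, against 181, 192 and 187 CPM in the wild-type corneas.

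Markers of other tissues moved with the 7 genes in part. The 12 lens genes, crystallins, filament proteins and membrane proteins of the lens fibre, summed to 19.2 and 12.1 CPM in the transgenic corneas, against 153, 35.1 and 27.7 CPM in the wild-type corneas. All 12 were highest in wild-type cornea 1, and 8 of the 10 with at least 20 counts were 2-fold above every other library. Their level and that of the 7 muscle genes were thus highest in the same library. Among the other libraries, the lens genes were lowest in transgenic cornea 2 and the muscle genes in wild-type cornea 2. The 7 muscle genes had 22.1 and 28.0 counts in the transgenic corneas, against 7 and 11 in wild-type corneas 2 and 3. Their order among these libraries is therefore uncertain. Of the 16 genes at least 4-fold high in wild-type cornea 1, 6 are on the lens list, 5 are the muscle genes, and the others are Poteg, Crygb, Krt23, Crygc and Grifin. Poteg led all genes, with 0 and 4 counts in the transgenic corneas, against 1394, 0 and 1 in the wild-type corneas, and Ckm, Myl1 and Mb came next.

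Other lists did not peak in wild-type cornea 1. Pigment cell and iris genes summed to 93.3 and 169 CPM in the transgenic corneas, against 54.1, 13.4 and 40.0 CPM in the wild-type corneas. Smooth muscle genes such as Myh11 summed to 353 and 396 CPM in the transgenic corneas, against 330, 333 and 314 CPM in the wild-type corneas. Heart genes summed to 0.733 and 1.11 CPM in the transgenic corneas, against 0.722, 1.08 and 0.820 CPM in the wild-type corneas. That sum was not raised in wild-type cornea 1, but it depends on which genes are on the list. The cardiac genes Actc1 and Tnnt2, kept on another list, were highest in wild-type cornea 1, at 14 counts and 3.36 CPM. Conjunctiva genes summed to 2904 and 5512 CPM in the transgenic corneas, against 2628, 3779 and 4197 CPM in the wild-type corneas. Wild-type cornea 1 was the lowest library of that list. Fat genes stayed between 0.182 and 1.31 CPM. The part of any of these tissues in the levels of the muscle genes was not tested.

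**Figure D5:**
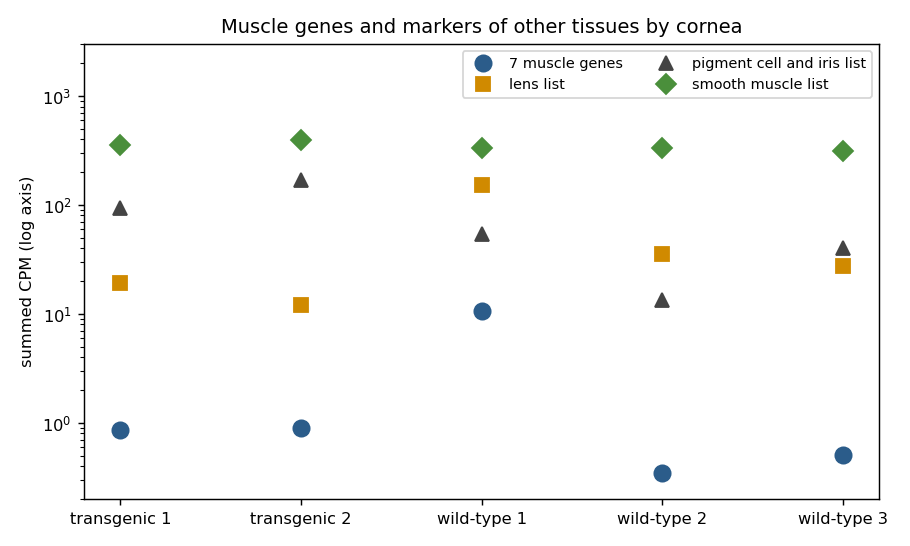
Summed CPM (log axis) of the 7 muscle genes high in wild-type cornea 1 and of the lens, pigment cell and iris, and smooth muscle lists in each library. Wild-type cornea 1 is highest for the muscle genes, at 10.7 CPM, and for the lens list, at 153 CPM, but not for the other lists.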

How the data were processed

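Whole corneas of 2 transgenic and 3 wild-type rats were sequenced. The authors deposited estimated counts (expected counts, not normalized) per gene and per isoform. Per the submitters' processing notes, STAR 2.5.3a, RSEM 1.2.28, fastp, edgeR 3.28.0, FastQC and DESeq2 1.26.0 were run with build rn6; their roles are not stated. Reads shared by similar transcripts are divided by such estimates. The values here were rounded and tested with edgeR 4.0.16 in R 4.3.3 (TMM, default filterByExpr with a minimum count of 10, robust quasi-likelihood F test, two-sided, Benjamini-Hochberg over all genes, threshold 0.05). CPM is after TMM, and the SE is the size of the log2 fold change over the square root of F. DESeq2 1.42.0 and limma voom 3.58.1 were alternatives. The procedure was tested on simulated data. Promoter sequences are from RefSeq GRCr8, whose coordinates were not mixed with rn6. Gene lengths were not used, so levels are not compared between genes. Genes, lists, rules and alternatives were chosen with earlier results of these data known. All 31 genes are named, with the nearest genes in profile and, in each other list, the 2 of smallest p and those of highest mean CPM; further genes were named after their values were seen. Some genes that this rule names are counted but not reported here by name.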

Additional observations from a re-analysis of the deposited data

How the results depend on the processing

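The 10 alternatives were edgeR with DESeq2 size factors, DESeq2, limma voom, no filter, replicate block, and each library left out. Of the 31 genes, 24 were tested without the filter, 22 with a transgenic library left out and 15 in the others. None of the muscle genes tested was called in the fits that kept both transgenic libraries. Over all genes, 1 was called in the main fit, 52 with DESeq2, 2 without the filter, 16 with the replicate block and 2 to 36 as single libraries were left out. No label used here pairs the libraries by replicate number, and no transgenic library has the number 3. Deviations of same-numbered libraries from their group means had correlations of -0.00465 and -0.111. With 2 transgenic libraries these deviations mirror each other, so the correlations cannot show whether libraries were paired. The median log2 fold change of the same 15 genes ran from -0.01 to 0.30 as wild-type libraries were left out; with a transgenic library left out it was -0.15 and -0.13 over 22 genes, and without the filter -0.19 over 24, sets that add the 7 genes high in wild-type cornea 1. Of 150 log2 fold changes of single muscle genes under the alternatives, 138 kept their sign. Casq1 was -0.10 under the replicate block. As libraries were left out, Tnni2 ran from -0.47 to 0.079, Neb from -0.12 to 0.35, Mylpf from -0.49 to 0.67, Ldb3 from -0.13 to 0.41, Casq1 from -0.36 to 0.51, Pvalb from -0.21 to 0.11 and Eno3 from -0.069 to 0.29. Genes that followed the 5-gene profile numbered 2, and 1 with a pseudocount of 0.5, 1 when 9 of 10 pairs were needed, 4 without Tnnt3, and 7 by the 2-fold rule; the last 2 rules were chosen after seeing the data. With all other muscle genes as the profile the number was again 2, but of other genes (Tnnc2 and Myl1 in place of Acta1 and Actn3). The causes were not tested. At these depths genes at a few counts cannot be told from 0, and 2 transgenic libraries leave the genotype comparison little precision.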
